A study of Mus musculus with 26 samples.

Results

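GW3965 is a synthetic agonist of the liver X receptors (LXRs), and the comparison described here asks what it does to the colon in the absence of carcinogen or injury. It covered 8 of the 26 colon samples of the series, chosen by their titles: 4 samples from mice on the GW3965 diet and 4 from mice on the standard diet, none of which had received azoxymethane (AOM) or dextran sulfate sodium (DSS). All 8 were wild-type C57BL/6J males from Taconic, about 10 weeks old at the start, and each diet had 2 samples taken after 22 days and 2 taken after 43 days. The standard diet was the purified base diet without the drug, and the labels place the 4 standard-diet samples in cage E and the 4 GW3965 samples in cage F, so that diet and cage cannot be told apart. The study's notes count mice per time point and, elsewhere, name pools of biological replicates sequenced as 1 sample, and the labels do not say which applies to these samples. The labels of GW3965 43-day replicate 2 conflict: the diet field names the standard diet, whereas the title and the cage are those of the GW3965 group. It was kept by its title, and counts without it are given below.

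RNA came from biopsies of the distal colon and had an RNA integrity number of 10 in all 8 samples. The total estimated counts ranged from 18328026 to 20964123 per sample. Ribosomal protein genes took 6.05 ± 0.453% of the counts on GW3965 and 5.77 ± 0.528% on the standard diet (SD, n = 4 each), and mitochondrial genes 5.48 ± 0.571% and 7.43 ± 2.75%. For these 2 shares, the total count and the share of the top 10 genes, two-sided exact permutation tests gave an adjusted P of 0.571 each. In a 4-against-4 comparison this test cannot give a P value below 0.0286. All 14 colonocyte genes of a marker list, all 10 goblet cell genes and 16 of 19 *Hox* genes passed the filter on low counts. Of 10 pancreas genes and 11 genes of small intestine and Paneth cells, 2 and 3 passed. Of 10 skeletal muscle genes, 12 genes of stratified squamous epithelium and 12 adipocyte genes, 7, 7 and 11 passed. Whether the biopsies held tissue other than colon was not tested. The tissue is bulk, so that fewer cells of a type and less RNA per cell cannot be told apart in any value below.

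LXRα (*Nr1h3*) and LXRβ (*Nr1h2*) are nuclear receptors that bind oxysterols, pair with retinoid X receptors and act on DNA elements in which 2 half-sites are spaced by 4 bases. Their best known targets export cholesterol from the cell through ABC transporters, and a further group makes, desaturates and esterifies fatty acids, largely through the transcription factor SREBP1c encoded by *Srebf1*. Other targets limit cholesterol uptake, remodel phospholipids or encode apolipoproteins. In the intestine, ABCG5 and ABCG8 form a dimer that returns sterols to the lumen, and ABCA1 loads cholesterol on to apolipoprotein A-I.

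The promoters of the genes that passed the test and of the other sterol efflux transporters were searched for the LXR element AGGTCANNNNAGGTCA, because the results below turn on these genes. On RefSeq sequences of GRCm38.p6, 5 of the 7 genes had 8 start sites in all, and the 250 bases before each start were read on both strands. With up to 3 mismatches in the 12 fixed letters, 2 of the 8 stretches held a match, against 18.5% of all 32851 promoters in the table (2.57% with up to 2 mismatches, where none of the 8 had one). The matches were 67 bases before the *Abca1* start and 182 bases before the third *Srebf1* start, which lies inside the gene. They are printed here 5′ to 3′ on the strand of the gene, with the matched 16 bases in capitals, for *Abca1* at chr4:53159896-53160145 (minus strand) and for *Srebf1* at chr11:60210472-60210721 (minus strand).
Abca1: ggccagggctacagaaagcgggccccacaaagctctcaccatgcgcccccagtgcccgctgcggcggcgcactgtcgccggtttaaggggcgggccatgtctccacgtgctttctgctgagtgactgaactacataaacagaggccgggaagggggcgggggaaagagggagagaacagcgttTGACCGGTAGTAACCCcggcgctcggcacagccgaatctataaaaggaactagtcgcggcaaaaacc
Srebf1: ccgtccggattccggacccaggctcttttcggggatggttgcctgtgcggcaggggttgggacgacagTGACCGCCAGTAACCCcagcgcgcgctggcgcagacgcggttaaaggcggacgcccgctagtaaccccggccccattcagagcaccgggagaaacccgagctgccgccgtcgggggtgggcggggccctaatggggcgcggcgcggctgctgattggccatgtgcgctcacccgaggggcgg
Read on the opposite strand, the *Abca1* match is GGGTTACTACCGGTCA and the *Srebf1* match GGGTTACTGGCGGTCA. The matched stretches as printed within the promoters differ at 2 of 16 positions, G7C and T8C (the *Abca1* base first, counted from the 5′ end), both in the spacer, and in 0 of the 12 fixed letters. No match was found in the stretches of *Abcg5*, *Abcg8*, *Abca7* or the other starts of *Srebf1*. *Abcg1* and *Abcg4* had no entry.

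In untreated colon 5 genes rose on the GW3965 diet, the transporters *Abcg1*, *Abcg5*, *Abcg8* and *Abca1* and the transcription factor gene *Srebf1*, and 0 fell. These were 5 of 15722 genes tested (0.0318%) at a false discovery rate (FDR) below 0.05 by edgeR's quasi-likelihood F-test with diet days in the model. With these 5 included, 523 genes (3.33%) had an unadjusted P below 0.05, of which 251 were higher and 272 lower on GW3965, and DESeq2 called 14 lower genes. In 379 genes (2.41%) the 4 samples of each diet did not overlap, with GW3965 higher in 201 (1.28%) and lower in 178 (1.13%). Neither the 3.33% nor the 2.41% is above the share that chance alone would give on average. Coordinates of genes are those of GRCm38. Values are counts per 1000000 (CPM) scaled by TMM, and fold changes are GW3965 over standard diet on the log2 scale with their s.e. The s.e. was derived from the fold change and its F statistic. Intervals of 95% use that s.e. with a normal quantile, so they are narrower than a t quantile would make them with so few samples. Where the first fold change of a gene in untreated colon has no FDR beside it, the FDR rounded to 1. Samples are listed in the order 22-day replicates 1 and 2, then 43-day replicates 1 and 2.

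*Abcg1* (chr17:31057675-31117988), which moves cholesterol to high-density lipoprotein, was at 94.9, 90.4, 80.5 and 83.1 CPM on GW3965 and at 13.4, 14.4, 11.5 and 7.94 CPM on the standard diet. All GW3965 samples lay far above all standard samples, with a log2 fold change of 2.90 ± 0.139 (FDR = 0.000164). *Abcg5* (chr17:84658234-84683011) was at 146, 121, 149 and 144 CPM against 20.8, 16.9, 12.9 and 13.6 CPM (3.14 ± 0.161, FDR = 0.000164). Its partner *Abcg8* (chr17:84676302-84700333) was at 54.8, 49.4, 59.2 and 64.2 CPM against 9.24, 6.58, 4.93 and 3.68 CPM, the largest fold of the 5 (9.59-fold, 95% interval 6.80 to 13.5; 3.26 ± 0.254, FDR = 0.00262). The annotated spans of *Abcg5* and *Abcg8* lie on opposite strands and overlap by 6710 bases, and no strand setting is given in the sources used here. *Abca1* (chr4:53030787-53159895) was at 120, 160, 144 and 164 CPM against 32.6, 44.2, 29.96 and 19.9 CPM (2.24 ± 0.219, FDR = 0.0134). *Srebf1* (chr11:60199089-60222581) was at 590, 561, 550 and 537 CPM against 116, 85.8, 126 and 155 CPM (2.23 ± 0.165, FDR = 0.00226).

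For each of these 5 genes the lowest GW3965 sample was above the highest standard sample. GW3965 43-day replicate 2, the sample with the conflicting label, stood with the other GW3965 samples in each, and the same 5 genes passed the test without it. The other efflux transporters of the list did not pass it: *Abca7* was at 29.3 to 33.9 CPM on GW3965 and at 26.1 to 34.3 CPM on the standard diet (0.05 ± 0.0952), and *Abcg4* at 0.679 to 1.44 CPM and 0.693 to 1.91 CPM (−0.16 ± 0.417). *Abca1* lost its call in 4 of the 8 fits that left out a sample (FDR 0.0756 to 0.144, without standard 22-day replicate 1, standard 43-day replicate 1, GW3965 22-day replicate 2 or GW3965 43-day replicate 1) and with a replicate block, while its log2 fold change stayed between 2.06 and 2.41.

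**Figure D1:**
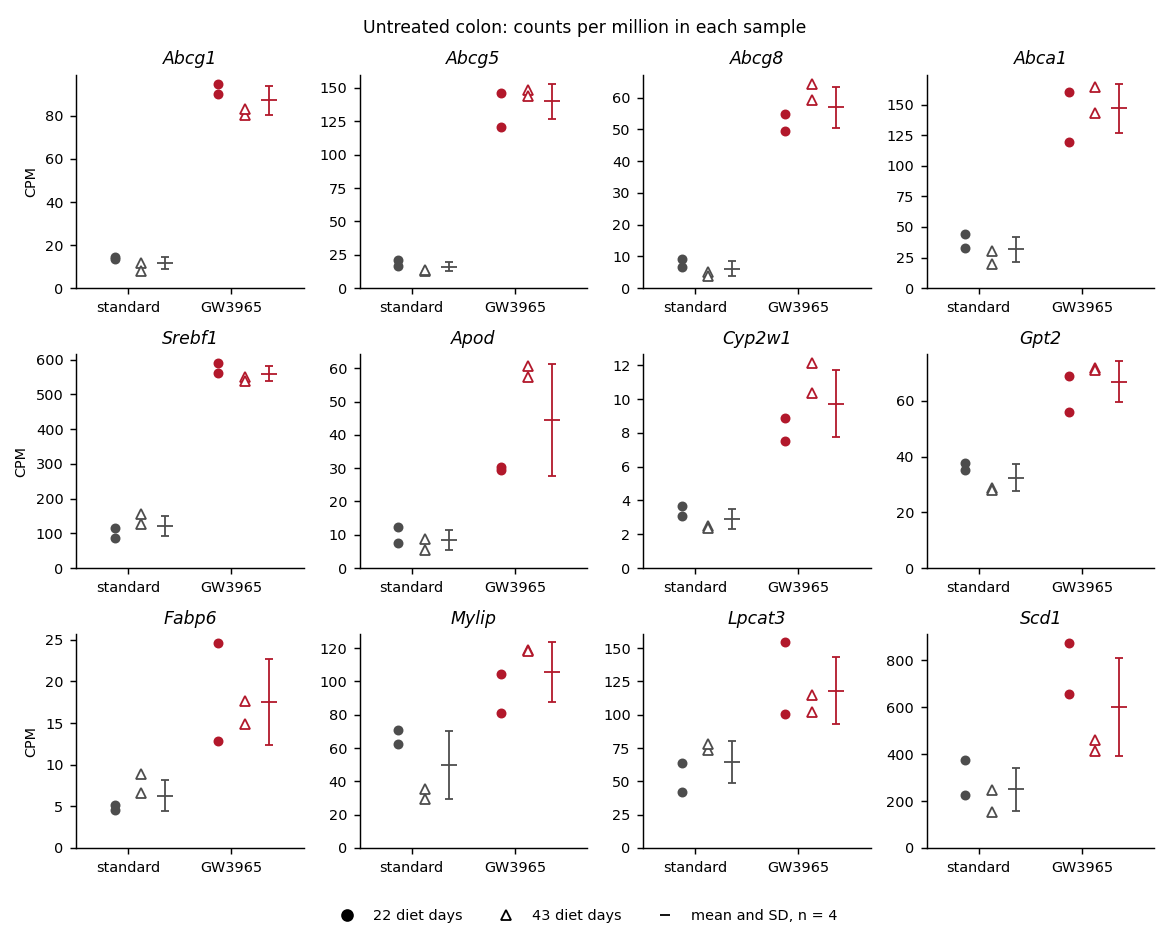
CPM (vertical axes, from 0) of 12 genes in the 8 untreated samples by diet, with filled circles for 22 and open triangles for 43 diet days, and the mean and SD of each diet. The top row and *Srebf1* passed the test across all genes and the other 7 genes did not. In all 12 the 4 GW3965 samples lie above the 4 standard samples, for example 80.5 to 94.9 against 7.94 to 14.4 CPM for *Abcg1*. *Apod*, *Cyp2w1*, *Gpt2*, *Fabp6* and *Scd1* were picked by a rule that requires this. It held in 1.28% of all genes tested.

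Below these 5 genes, most other known LXR targets had higher means on GW3965 without passing the correction. Of 32 genes in the list, which was written with earlier results of these data known, 29 were tested. The counts below include *Srebf1*, already given among the 5. *Srebf1* was called (6 genes by DESeq2), 11 in all had an unadjusted P below 0.05 and were higher on GW3965, and 0 were lower at that P, against 1.6% and 1.73% of all genes. Their median log2 fold change was 0.25, against −0.0139 over all genes, and 24 of 29 were above 0. The groups did not overlap in 7 of the 29, with GW3965 higher in 7 and lower in 0, against 1.28% and 1.13% of all genes. Without GW3965 43-day replicate 2, 10 of the 29 were higher at an unadjusted P below 0.05 and 0 lower, against 1.32% and 1.31% of all genes, and the median was 0.34.

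*Mylip*, a ubiquitin ligase that limits cholesterol uptake, was at 81.0, 104, 119 and 118 CPM on GW3965 and at 62.5, 71.2, 35.4 and 29.2 CPM on the standard diet (1.17 ± 0.274, FDR = 0.907). The diets were closest at 22 days and furthest apart at 43 days. *Lpcat3*, which inserts polyunsaturated fatty acids into phospholipids, was at 155, 101, 102 and 115 CPM against 64.0, 42.3, 73.4 and 77.9 CPM (0.89 ± 0.212, FDR = 0.907). *Fabp6*, the ileal bile acid binding protein, was at 24.6, 12.9, 14.9 and 17.7 CPM against 5.22, 4.54, 6.61 and 8.84 CPM (1.505 ± 0.268, FDR = 0.411). All 3 genes were higher in each GW3965 sample than in any standard sample. In the apolipoprotein and lipid transfer group, *Apoe* (0.58 ± 0.239), *Apoc1* (1.62 ± 0.400) and *Pltp* (0.63 ± 0.216) had higher means on GW3965, and the diets overlapped in all 3. *Apoe*, for example, was at 511, 809, 813 and 768 CPM against 372, 588, 625 and 347 CPM.

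Most genes of fatty acid synthesis and desaturation also had higher means on GW3965. All 25 were tested, 9 had an unadjusted P below 0.05 and were higher on GW3965, and 0 were lower at that P, against 1.6% and 1.73% of all genes. Of the 25, 0 passed the correction (4 by DESeq2), and 20 were above 0 (median 0.19). The lists are not separate: *Scd1*, *Scd2*, *Fasn*, *Acaca* and *Lpcat3* are among the 9 and were also counted with the LXR targets above. Without GW3965 43-day replicate 2, 8 of the 25 were higher and 0 lower at an unadjusted P below 0.05 (median 0.21), against 1.32% and 1.31% of all genes. *Scd1*, which desaturates stearate to oleate, was at 656, 875, 416 and 459 CPM against 226, 375, 245 and 154 CPM (1.24 ± 0.211, FDR = 0.349). *Scd2*, its close relative, was at 3583, 2510, 2316 and 2261 CPM against 1325, 705, 1579 and 2177 CPM (0.94 ± 0.326). Reads of such paralogues can be split between them by the counting. *Acaca*, which makes malonyl-CoA, was at 69.6 to 79.8 CPM against 49.2 to 63.3 CPM (0.45 ± 0.105, FDR = 0.907). *Fasn*, the synthase that follows it, was at 142 to 230 CPM against 88.5 to 178 CPM (0.55 ± 0.237), and its diets overlapped.

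*Elovl5*, an elongase of polyunsaturated fatty acids, varied little between samples of a diet, with 98.2, 96.3, 96.4 and 100.2 CPM on GW3965 and 59.2, 59.1, 72.8 and 73.3 CPM on the standard diet (0.57 ± 0.0881, FDR = 0.216). *Gpam*, the first acyltransferase of glycerolipid synthesis, was at 86.2, 86.3, 82.1 and 70.9 CPM against 59.4, 64.1, 57.9 and 57.6 CPM (0.44 ± 0.0838, FDR = 0.488). The desaturases *Fads1* (0.47 ± 0.180) and *Fads2* (0.46 ± 0.180) had higher means with overlapping diets. *Acly* was at 0.19 ± 0.234 and *Elovl6* at −0.12 ± 0.211, neither with an unadjusted P below 0.05.

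The 20 genes of smallest P that missed the correction and whose diets did not overlap, at most 10 in each direction, held genes outside the classical lists. They were picked by their P in the same counts, so calls by a more liberal test are no independent support. The likelihood ratio test of edgeR, which called 33 genes in all (0.21%; 22 higher, 0.14%), called 17 of them, and DESeq2, which called 45 (0.286%; 31 higher, 0.197%), called 19. With all 26 samples, the ribosomal percentage, RLE factors or a stricter filter 0 of the 20 were called, and with a replicate block 1. Without GW3965 43-day replicate 2, all 20 kept their direction and an unadjusted P below 0.05, and 0 were called. That fit reuses the other samples by which the 20 were picked, so it is no independent support either. *Gpt2*, the mitochondrial alanine aminotransferase, came closest, at 68.8, 56.1, 71.9 and 71.1 CPM on GW3965 and 37.7, 35.2, 28.6 and 28.1 CPM on the standard diet (1.06 ± 0.134, FDR = 0.0861). *Cyp2w1*, a cytochrome P450 known from fetal gut and colon tumours, was at 8.87, 7.52, 12.2 and 10.4 CPM against 3.67, 3.06, 2.51 and 2.34 CPM (1.74 ± 0.235, FDR = 0.118). Both genes passed in the model without diet days. *Apod*, a lipocalin that carries small lipids, was at 29.5, 30.4, 57.3 and 60.8 CPM against 7.54, 12.4, 8.75 and 5.27 CPM (2.33 ± 0.335, FDR = 0.153). Its fold change was close to that of *Abca1*, with a wider error.

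The other higher genes of the 20, besides *Scd1*, *Fabp6*, *Elovl5* and *Gpam* given above, were *Bco2*, *Il18* and *Wfdc2*. *Bco2*, which cleaves carotenoids, was at 11.3 to 16.1 CPM on GW3965 and 5.07 to 7.72 CPM on the standard diet (1.01 ± 0.184, FDR = 0.433). *Il18*, a cytokine of the colonic epithelium, was at 71.6 to 95.8 CPM against 50.4 to 60.9 CPM (0.60 ± 0.117, FDR = 0.524). *Bco2* and *Il18* are neighbours on opposite strands of chromosome 9 whose annotated spans share 355 bases. *Wfdc2*, a secreted antiprotease, was at 362 to 448 CPM against 273 to 325 CPM (0.51 ± 0.0994, FDR = 0.524).

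Of the 10 lower genes, 7 are protein coding genes outside the immunoglobulin loci. *Ccl9*, a chemokine, was at 12.8 to 15.97 CPM on GW3965 and 21.6 to 25.5 CPM on the standard diet (−0.70 ± 0.119, FDR = 0.349). *Creb3l3*, a transcription factor of fasting and triglyceride metabolism, was at 1.67, 1.60, 1.10 and 0.702 CPM against 7.33, 2.80, 3.54 and 4.21 CPM (−1.85 ± 0.350, FDR = 0.488). *Lama3*, a laminin chain of the epithelial basement membrane, was at 21.9 to 40.4 CPM against 41.3 to 72.6 CPM (−0.79 ± 0.156, FDR = 0.531). *Cemip*, a hyaluronan-degrading protein, was at 0.992 to 1.55 CPM against 2.24 to 4.05 CPM (−1.33 ± 0.289, FDR = 0.818), *March3* at 6.37 to 8.60 CPM against 10.8 to 16.8 CPM (−0.77 ± 0.137, FDR = 0.411), *Stc2* at 6.32 to 7.93 CPM against 9.003 to 15.5 CPM (−0.92 ± 0.201, FDR = 0.818) and *Kalrn* at 32.7 to 46.4 CPM against 55.4 to 59.98 CPM (−0.49 ± 0.115, FDR = 0.907).

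The remaining 3 are less certain. *Ighv5-4* (−2.27 ± 0.418, FDR = 0.453) and *Ighv1-34* (−2.31 ± 0.543, FDR = 0.907) are immunoglobulin variable segments at 0.188 to 2.79 CPM, which share sequence with other segments. *Gm28661*, an unprocessed pseudogene, was at 0, 0.141, 0 and 0.216 CPM on GW3965 and at 1.29, 5.91, 12.5 and 62.8 CPM on the standard diet (FDR = 0.153). Its standard-diet samples spread widely among themselves, and a pseudogene can share reads with near-identical copies.

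**Figure D2:**
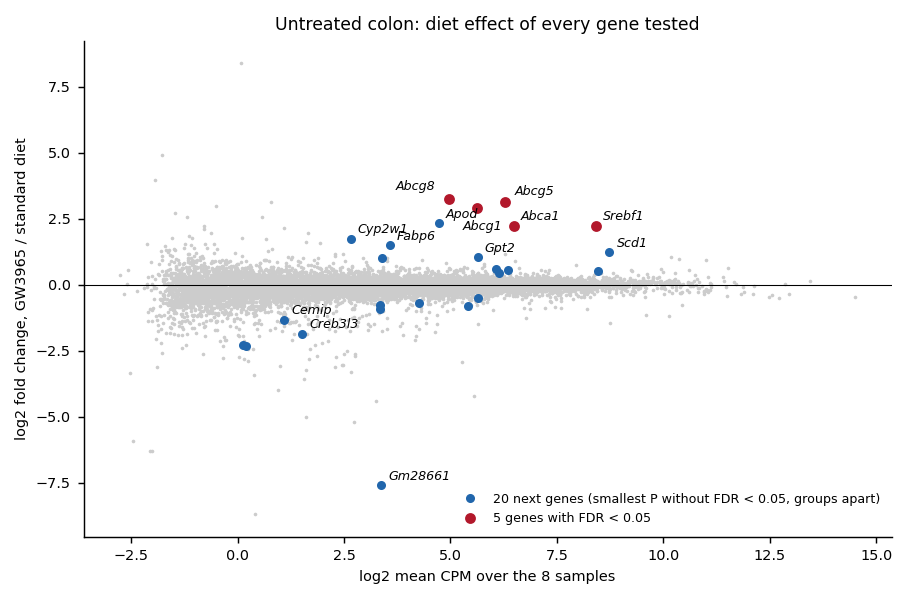
Log2 fold change of GW3965 over standard diet (vertical axis) against the log2 mean CPM of the 8 samples (horizontal axis) for the 15722 genes tested. The 5 genes with FDR below 0.05 (red) lie between 2.23 and 3.26, and the 20 next genes (blue) lie closer to 0 except *Apod*, the 2 immunoglobulin segments and *Gm28661*.

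Sterol synthesis genes lay on the other side of 0. Of 29 genes of cholesterol synthesis and uptake tested, 25 were lower on GW3965 and the median was −0.48, but 0 reached an unadjusted P below 0.05. Without GW3965 43-day replicate 2 the median was −0.27 and 24 were lower. The genes were not lower at both times. *Hmgcs1*, which makes HMG-CoA, was at 358 and 211 CPM on GW3965 against 320 and 134 CPM on the standard diet after 22 days, and at 147 and 103 CPM against 450 and 641 CPM after 43 days. *Sqle*, which oxidises squalene, was at 129 and 79.4 CPM against 136 and 65.9 CPM, and then at 59.8 and 53.8 CPM against 170 and 238 CPM. In both genes, which were chosen after their values were seen, the 43-day samples of the diets stood apart and the 22-day samples overlapped.

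The interaction of diet with diet days, the test of that difference, gave log2 values of −2.45 ± 0.607 for *Hmgcs1* (FDR = 0.161) and −1.89 ± 0.504 for *Sqle* (FDR = 0.171). Over the list, 17 of 29 genes had an interaction below 0 at an unadjusted P below 0.05 (median −1.32), and 0 passed the correction (13 by DESeq2). Unadjusted interactions were common, however, at 19.1% of all 15722 genes, 9.8% below 0 and 9.31% above it. Summed over the list, the standard diet had 4107, 2324, 4539 and 5832 CPM and GW3965 had 4466, 3001, 2675 and 2575 CPM. *Scd2* (−1.30 ± 0.465, FDR = 0.212) and *Fasn* (−1.15 ± 0.255, FDR = 0.146) had interactions of the same sign, with diet effects of 1.59 and 1.12 within 22 days and of 0.29 and −0.02 within 43 days. *Mylip* (1.41 ± 0.225, FDR = 0.113) and *Apod* (1.48 ± 0.387, FDR = 0.171) had the opposite sign.

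Smooth muscle genes had interactions with diet days of the opposite sign to those of the sterol genes. The summed CPM of 10 smooth muscle genes was 13820, 29370, 12300 and 10060 on the standard diet and 6675, 13430, 15750 and 17750 on GW3965. In the interaction, 9 of the 10 were above 0 at an unadjusted P below 0.05, against 9.31% of all genes. All 10 had a mean log2 fold change below 0 over both times, and none reached an unadjusted P below 0.05. The summed CPM of 14 colonocyte genes was 5687 to 9521 on the standard diet and 5580 to 10630 on GW3965. Epithelial and cell cycle lists had interactions of the same sign as the sterol genes. In the interaction, 17 of 17 cell cycle genes were below 0 (7 at an unadjusted P below 0.05, median −0.81), as were 13 of 14 colonocyte genes (3 at that P, median −0.44), 10 of 10 goblet cell genes (3, median −0.73) and 9 of 10 enteroendocrine cell genes (7, median −0.95), against 9.8% of all genes below 0 at that P. The part of these lists in the results for sterol and fatty acid genes was not tested. Among the standard-diet samples, *Abca1* and *Abcg1* stood in the order of the muscle sums, from 44.2 and 14.4 CPM at the highest sum to 19.9 and 7.94 CPM at the lowest, and *Srebf1* stood in the reverse order, from 85.8 to 155 CPM. *Abcg5* and *Abcg8* did not keep that order. They were highest in standard 22-day replicate 1, at 20.8 and 9.24 CPM, and at 16.9 and 6.58 CPM in replicate 2, which had the highest muscle sum. In the GW3965 samples with the lowest and the highest muscle sum, *Abcg1* was at 94.9 and 83.1 CPM and *Abca1* at 120 and 164 CPM.

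Only 2 genes passed the correction for the interaction (0.0127%), the immunoglobulin heavy chain constant genes *Ighg2c* (−6.23 ± 0.499, FDR = 0.0272) and *Ighg2b* (−4.53 ± 0.413, FDR = 0.0363). *Ighg2b* was at 3.82 and 2.80 CPM after 22 days and 79.2 and 59.0 CPM after 43 days on the standard diet, and at 9.08, 5.59, 7.44 and 5.72 CPM on GW3965. The 2 standard 43-day samples were also high in the 11 plasma cell genes, with sums of 11330 and 3835 CPM against 933 to 2113 CPM in the other 6 samples, and in *Igha*, with 5132 and 1592 CPM against 225 to 785 CPM. DESeq2 called 705 interactions, and leaving out a sample gave 0 to 682 (682 without standard 22-day replicate 1). *Ighg2c* lost its call in 5 and *Ighg2b* in 6 of the 8 fits that left out a sample. Within 43 days alone, 15 genes (0.0954%) passed, 10 of them (0.0636%) higher on GW3965 (the 5 above, *Gpt2*, *Cyp2w1*, *Apod*, *Mylip* and *Shisa2*) and 5 lower (*Ighg2b*, *Ighg2c* and 3 light chain variable segments). Within 22 days alone 6 genes (0.0382%) passed, 4 that were higher (0.0254%; the 5 without *Abca1*) and 2 that were lower, *Klhl24* and *Crebrf*. *Klhl24* was at 130 and 124 CPM in the standard 22-day samples and at 53.1 to 89.3 CPM in the other 6.

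**Figure D3:**
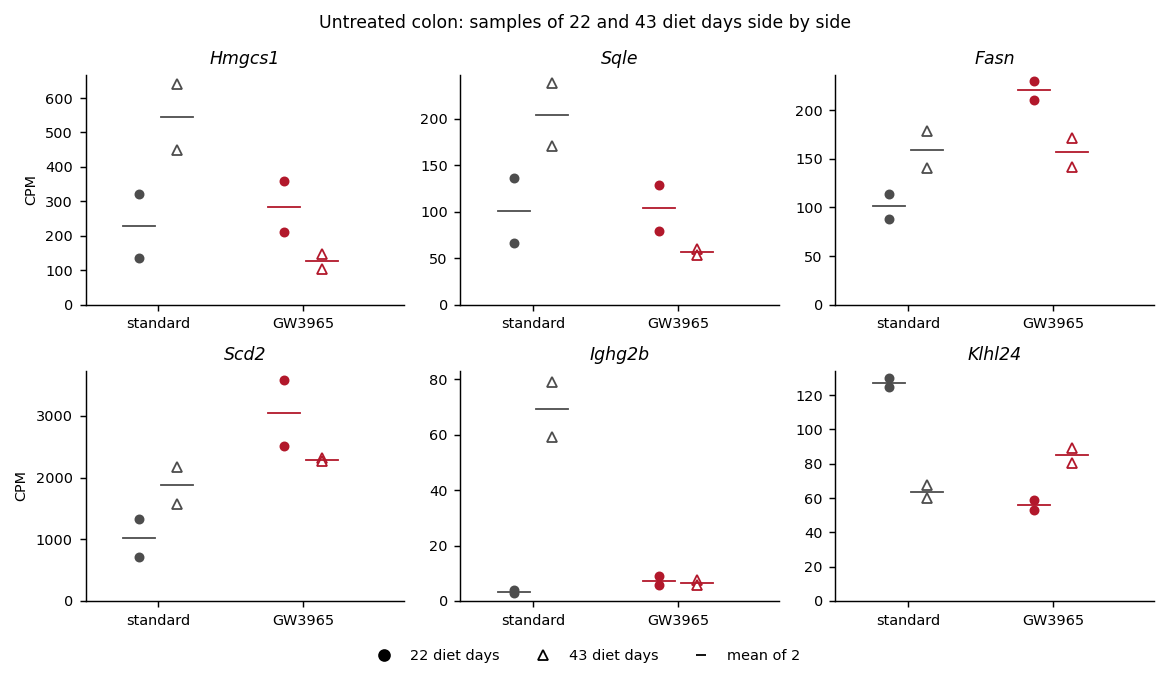
CPM (vertical axes, from 0) of 6 genes by diet, with samples of 22 days (filled circles) and 43 days (open triangles) apart and lines at the mean of each pair. For *Hmgcs1* and *Sqle* the 43-day samples are high on the standard diet (450 and 641 CPM for *Hmgcs1*) and low on GW3965 (147 and 103 CPM); for *Ighg2b* only the standard 43-day samples are high, and for *Klhl24* the standard 22-day samples.

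The weaker differences were then read in 18 samples that had no part in the comparison, the AOM–DSS samples of days 22, 43 and 70 with 3 per diet and day. The 6 groups and the ribosomal percentage of each sample were fitted together, and the diet effect was averaged over the 3 days. These 18 samples came from mice of the same strain, sex and diets that had been injected with AOM and given DSS in the drinking water. By day 22 only the first cycle of DSS had been given, and further cycles followed. The RNA integrity number of the samples ranged from 2.6 to 10. The paper states that biopsies in this model were taken from distal colon where tumours form. It reports no tumours at the earliest time point and, later, fewer on GW3965 than on the standard diet. Diet and tumour content are therefore not separated in the later samples, and the part of tumour content in the averaged diet effect was not tested. Here 13 of 16826 genes (0.0773%) were called, with 26 calls without the ribosomal percentage and 392 by DESeq2, and 1638 genes (9.73%) had an unadjusted P below 0.05. All 5 genes called in untreated colon were called there too, at log2 fold changes of 1.84 to 2.49. Of the 12 of those 13 genes that were tested in untreated colon, all 12 had the same direction there and an unadjusted P below 0.05, against 3.33% of all genes tested. Besides the 5, these were *Scd2*, *Mylip*, *Fabp6*, *Lpcat3*, *Fads1* and *Zc3h12a*, all higher, and *Ccn3*, lower.

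*Mylip* had a log2 fold change of 1.08 ± 0.121 in AOM–DSS colon (FDR = 0.00105) against 1.17 ± 0.274 in untreated colon, and *Lpcat3* 0.94 ± 0.130 (FDR = 0.00705) against 0.89 ± 0.212. For both the difference between these averaged estimates was smaller than either s.e. By day the AOM–DSS values varied. *Mylip* was at 0.46 ± 0.199, 1.09 ± 0.219 and 1.68 ± 0.208 on days 22, 43 and 70. *Lpcat3* was at 1.11 ± 0.220, 1.18 ± 0.240 and 0.53 ± 0.219. *Zc3h12a*, an RNase that limits inflammatory mRNAs, was at 0.97 ± 0.164 (FDR = 0.0487) against 0.63 ± 0.184. *Ccn3*, a matricellular protein, was at −1.68 ± 0.189 (FDR = 0.00105) against −0.55 ± 0.149, with 10.8 ± 1.77 CPM on GW3965 and 15.8 ± 1.85 CPM on the standard diet in untreated colon and no overlap. *Fabp6* was at 2.53 ± 0.345 (FDR = 0.0068) against 1.505 ± 0.268, and on day 22 of AOM–DSS it was at 54.1 ± 17.3 CPM on GW3965 and 2.52 ± 1.58 CPM on the standard diet (SD, n = 3). The *Fabp6* values lay closer on day 43, at 18.7 ± 3.96 and 4.56 ± 1.79 CPM (log2 1.88, FDR = 0.869), and overlapped on day 70, at 7.72 ± 6.98 and 3.18 ± 0.426 CPM (log2 1.20, FDR = 0.363), against a log2 value of 4.51 (FDR = 0.0285) on day 22. Whether these genes differed between untreated and AOM–DSS colon was not tested.

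Of the 20 next genes, 17 had the same direction in the AOM–DSS samples and 9 also an unadjusted P below 0.05 (45%), among them *Apod*, *Cyp2w1*, *Scd1*, *Fabp6*, *Gpam* and *Wfdc2*, higher, and *March3*, *Lama3* and *Cemip*, lower. None had the opposite direction at that P. Whether tumour content had a part in these shared directions was not tested. The 17 include *Il18*, whose value given below is close to 0, and *Gm28661*, at −1.63 ± 1.83. Over all genes, 48.9% had the same direction and 5.36% also an unadjusted P below 0.05, and over the 506 tested genes with an unadjusted P below 0.05 but no call in untreated colon these shares were 57.9% and 17.6%. *Apod* was at 2.32 ± 0.414 (FDR = 0.061) averaged over the days, nearly the value of untreated colon. Its values by day were 1.97 ± 0.692, 1.12 ± 0.689 and 3.86 ± 0.770 on days 22, 43 and 70. *Gpt2* was at 0.29 ± 0.236 (FDR = 0.775), *Il18* at 0.01 ± 0.281 and *Bco2* at −0.50 ± 0.314, so that the AOM–DSS samples gave no call for these. In the list of other LXR targets, 19 of 29 genes were higher at an unadjusted P below 0.05 there and 0 were lower, against 5.68% and 4.06% of all genes. The sterol synthesis genes did not repeat their direction: 9 of 29 were higher and 1 was lower at that P.

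**Figure D4:**
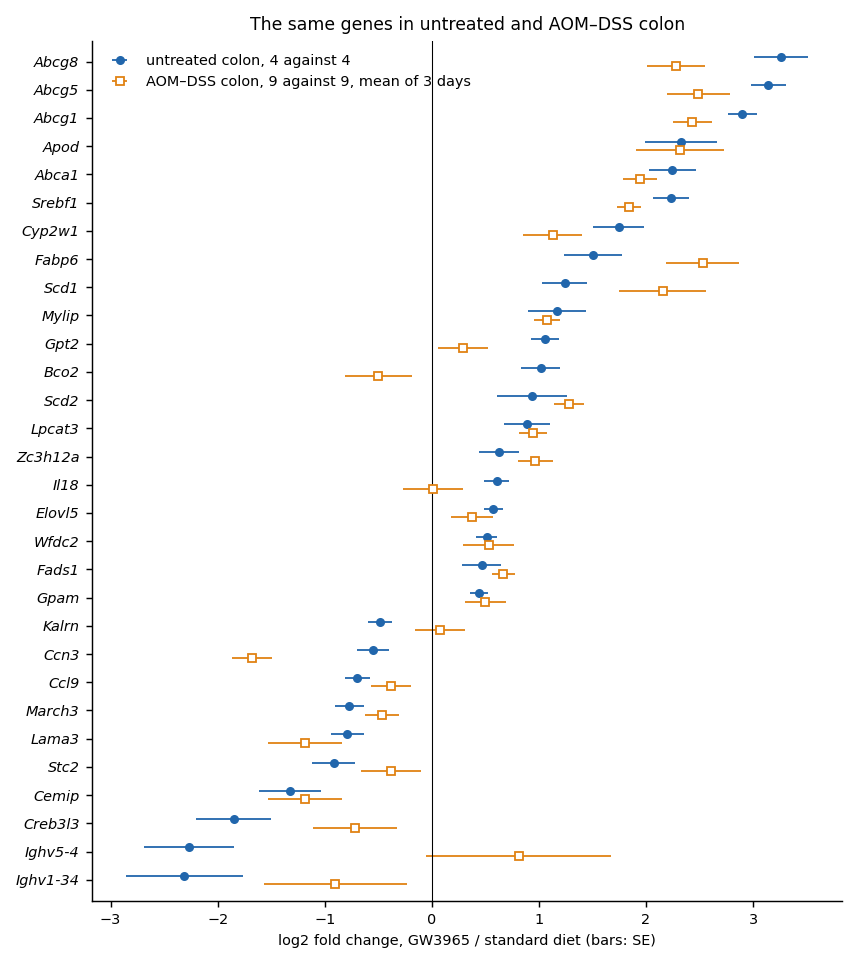
Log2 fold change with s.e. (horizontal axis) of 30 genes, those called in untreated or AOM–DSS colon and the 20 next genes without *Gm28661*, in untreated colon (circles) and in the 18 AOM–DSS samples (open squares). Most genes lie on the same side of 0 in both, with values averaged over the days near each other for *Mylip*, *Lpcat3* and *Apod*. *Bco2*, *Kalrn* and *Ighv5-4* lie on opposite sides, and *Il18* lies close to 0 in AOM–DSS colon.

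Some genes were singled out after their values were seen. *Rnf145*, a ubiquitin ligase of the sterol pathway, was at 131 to 155 CPM on GW3965 and 94.5 to 113 CPM on the standard diet (0.44 ± 0.0958, FDR = 0.818), and at 0.43 ± 0.0793 over the AOM–DSS samples (FDR = 0.063). *Gramd1b*, which carries cholesterol from the plasma membrane to the endoplasmic reticulum, was at 14.6 to 18.3 CPM against 8.70 to 11.98 CPM (0.71 ± 0.148, FDR = 0.675), and at 0.43 ± 0.120 in AOM–DSS colon (FDR = 0.237). Both were called by DESeq2 in untreated colon, and neither by the main test.

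The receptors themselves did not pass the test. Of 11 LXR receptors, partners and cofactors, 0 had an unadjusted P below 0.05. *Nr1h3* was at 32.7 to 39.2 CPM on GW3965 and 28.6 to 34.4 CPM on the standard diet (0.22 ± 0.103), and *Nr1h2* at 82.1 to 98.8 CPM and 76.8 to 100.1 CPM (0.02 ± 0.0964). Scaled by length as transcripts per 1000000 (TPM), *Nr1h2* was at 62.6 ± 2.52 on GW3965 and 61.1 ± 5.64 on the standard diet, and *Nr1h3* at 28.7 ± 1.75 and 22.96 ± 2.61, so that *Nr1h2* was the more abundant in both. Of 9 genes of oxysterol synthesis and breakdown tested, *Cyp11a1* (0.74 ± 0.315) was the only gene with an unadjusted P below 0.05. Over all genes, 1.6% were higher at that P. *Cyp27a1*, which makes 27-hydroxycholesterol, an LXR ligand, was at 27.8 to 32.9 CPM against 20.6 to 43.9 CPM (−0.04 ± 0.157).

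Lipoprotein genes were mixed, with 5 of 18 higher and 1 lower at an unadjusted P below 0.05, against 1.6% and 1.73% of all genes. *Apoe*, *Apoc1* and *Pltp*, and *Fabp6* among the bile acid genes below, were also counted in the list of other LXR targets. Besides *Apoe*, *Apoc1*, *Apod* and *Pltp*, *Scarb1*, the receptor for high-density lipoprotein, was at 37.2 to 44.3 CPM against 30.5 to 34.5 CPM (0.35 ± 0.0982), and *Apoa2* at 0.329 to 0.384 CPM against 0.465 to 0.826 CPM (−0.93 ± 0.375). Of 8 bile acid genes tested, *Fabp6* and the ileal bile acid transporter *Slc10a2* (0.93 ± 0.388) were higher at that P. Of 20 genes of PPAR and fat oxidation, *Ppara* (0.66 ± 0.184) and *Acot1* (0.87 ± 0.206, FDR = 0.907) were higher and *Fabp2* (−0.74 ± 0.317) lower. None of the 17 genes of the xenobiotic receptors PXR and CAR that were tested reached an unadjusted P below 0.05 in either direction.

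Among 11 EGFR ligands and receptors, *Egf* was higher (0.66 ± 0.237) and *Egfr* lower (−0.25 ± 0.0954) at an unadjusted P below 0.05, against 1.6% and 1.73% of all genes. *Egfr* was at 24.6 to 27.5 CPM on GW3965 and 28.5 to 32.3 CPM on the standard diet, a small difference without overlap. *Areg*, which encodes the EGFR ligand amphiregulin, was at 33.8, 18.98, 4.56 and 11.3 CPM on GW3965 and at 14.7, 5.10, 12.8 and 22.5 CPM on the standard diet (0.14 ± 0.637, 95% interval of the fold 0.466 to 2.62). The diets overlapped, and the interval is wide. Its interaction with diet days was −2.57 ± 0.833 (FDR = 0.2).

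Averaged over both times, stem cell, proliferation and differentiated cell genes gave few differences even without the correction, whereas their interactions with diet days are given above. Of 15 Wnt target and stem cell genes 1 had an unadjusted P below 0.05 (*Prom1*, −0.54 ± 0.228), and of 17 cell cycle genes 1 (*Mki67*, −0.39 ± 0.130). Over all genes, 1.73% were lower at that P. Of 18 mucosal defence genes, *Pigr*, the transporter of IgA, was at 3387, 2908, 4565 and 3302 CPM on GW3965 and 2284, 2104, 2298 and 2435 CPM on the standard diet (0.63 ± 0.157). *Itln1* (1.28 ± 0.306, FDR = 0.907) was also higher and *Lyz1* (−0.89 ± 0.279) lower at an unadjusted P below 0.05, against 1.6% and 1.73% of all genes. In the lists of colonocytes, goblet, enteroendocrine and tuft cells, interferon-stimulated genes and stress genes, 0 genes had an unadjusted P below 0.05. Of the 2 pancreas genes tested, *Cela1* was higher on GW3965 at an unadjusted P below 0.05 (0.35 ± 0.148), against 1.6% of all genes. *Cela1* was at 635 to 837 CPM on GW3965 and 472 to 686 CPM on the standard diet, and the diets overlapped.

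Among 18 clock genes, *Per2* (0.61 ± 0.167) and *Dbp* (0.36 ± 0.129) were higher and *Arntl* (−0.63 ± 0.197) and *Npas2* (−0.39 ± 0.149) lower at an unadjusted P below 0.05. Over all genes, 1.6% were higher and 1.73% lower at that P. *Arntl* was at 7.12 to 10.95 CPM on GW3965 and 11.5 to 17.1 CPM on the standard diet. The hour of sampling is not given in the sources used here. The 13 B cell genes lay on opposite sides of 0 at the 2 times. All 13 were above 0 within 22 days (median 1.45) and all 13 below 0 within 43 days (median −0.80). In the interaction all 13 were below 0 (median −2.10), with 0 called (6 by DESeq2). Of the 13, 12 were below 0 at an unadjusted P below 0.05, against 9.8% of all genes. The summed B cell genes were at 183 and 252 CPM on GW3965 against 92.0 and 67.0 CPM on the standard diet after 22 days, and at 160 and 107 CPM against 349 and 112 CPM after 43 days. Averaged over both times 0 of the 13 had an unadjusted P below 0.05 (median 0.35). In the AOM–DSS effect averaged over days 22, 43 and 70, all 13 were higher at that P, against 5.68% of all genes. *Ms4a1*, the only B cell gene read by day here, was at −0.02 on day 22, 1.87 on day 43 and 4.51 on day 70. On day 70 it was at 6.49, 61.7 and 3.17 CPM on GW3965 and at 0.762, 2.27 and 0.710 CPM on the standard diet. Averaged over both times, 13 of 14 T cell genes were below 0 (median −0.39), with 1, *Cd28*, at an unadjusted P below 0.05, against 1.73% of all genes. Within 22 days 11 of the 14 were above 0 (median 0.19), and within 43 days 13 were below 0 (median −1.02). All 14 were below 0 in the interaction, 1 of them at that P. The summed T cell genes were at 21.2, 26.4, 68.9 and 22.8 CPM on the standard diet and at 20.4, 33.9, 28.5 and 20.1 CPM on GW3965. In the macrophage and dendritic cell list 1 of 16 genes, *C1qa* (−0.41 ± 0.180), had an unadjusted P below 0.05 and was lower, against 1.73% of all genes. Its sums were 1098 to 1805 CPM on GW3965 and 989 to 2237 CPM on the standard diet.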

How the data were processed

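RNA-seq of 26 mouse colon samples was read, of which 8 untreated samples are the subject. Transcript abundance had been estimated by the authors from paired-end reads with Kallisto against mouse cDNA of GRCm38 (release and version not given in the sources used here), and they deposited expected counts (estimated, not whole numbers) and TPM per transcript. Of 119414 transcripts, 116728 (97.8%) had an identifier listed in GENCODE for GRCm38. Counts were summed over 35975 genes and rounded. TPM served only to compare receptor levels.

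Genes kept by filterByExpr over the 4 groups were scaled by TMM and tested in edgeR 4.0.16 (R 4.3.3) by the quasi-likelihood F-test on diet days and diet, with Benjamini-Hochberg adjustment at FDR < 0.05. DESeq2 1.42.0 and edgeR's likelihood ratio test, which the authors' methods name, were alternatives. The fits were tested on simulated data. P values measure the spread between samples, each of which may be a mouse or a pool.

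Members and gene lists were chosen with earlier results of these data known. Genes were named by rule: those called, the 20 next by P whose diets did not overlap (at most 10 per direction), list genes with an unadjusted P below 0.05, some fixed LXR pathway genes, and genes called in the interaction. Genes called over the AOM–DSS samples were added. Some genes of the pathway are not reported here.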

Additional observations from a re-analysis of the deposited data

Results flagged for a closer look

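In 218 groups of 4 samples (each diet, for 4 library values, 39 list sums and the genes named by rule), a sample stood far from the other 3 of its diet in 11, where the rule behind it (Dixon's test at 95%) picks about 5% by chance. The 11 flags are close to that share, so no single flag below is a result about its sample. The total count of GW3965 43-day replicate 2 was 18328026, the lowest of its group. Standard 43-day replicate 1 had the highest summed B cell genes (349 CPM), T cell genes (68.9 CPM) and *Lyz1* (45.9 CPM) and the lowest *Bco2* (5.07 CPM) of its diet, and standard 43-day replicate 2 the highest *Il18* (60.9 CPM). GW3965 22-day replicate 1 had the lowest summed lipoprotein genes (892 CPM), the lowest *Apoe* (511 CPM) and the highest summed *Hox* genes (1266 CPM), and GW3965 22-day replicate 2 the lowest *Abcg5* (121 CPM) and the highest *Ighv1-34* (0.705 CPM) of its diet.

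The diet effect differed between 43 and 22 diet days for *Ighg2c* (log2 difference −6.23, FDR = 0.0272) and *Ighg2b* (−4.53, FDR = 0.0363) by the interaction term. The 2 standard 43-day samples, at 79.2 and 59.0 CPM of *Ighg2b*, stood above the other 6 at 2.80 to 9.08 CPM.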

How the results depend on the processing

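The 5 calls in untreated colon were shared by the fits with all 26 samples, with the ribosomal percentage, with RLE factors and with a stricter filter. The count was 7 without diet days, 45 by DESeq2, 33 by the likelihood ratio test, 13 without a filter and 15 within 43 days (6 within 22 days; both added after seeing the data). Leaving out a sample gave 4 to 8 calls, the 8 without standard 22-day replicate 2. Replicate numbers are shared between diets but mark different cages. With groups of 2, deviations of same-numbered samples correlated at 0.378 and 0.141, and −0.371 to 0.0145 in AOM–DSS. A replicate block again called 5 genes, losing *Abca1* (log2 2.25) and adding *Gm28661*. The interaction gave 2 calls, 4 with the ribosomal percentage, 705 by DESeq2, 1177 without a filter, 1523 with the replicate block and 0 to 682 without a sample (682 without standard 22-day replicate 1; 0 without standard 22-day replicate 2, either GW3965 22-day sample or GW3965 43-day replicate 2; 4 and 13 without standard 43-day replicates 1 and 2; 1 without GW3965 43-day replicate 1). The AOM–DSS effect gave 13 calls, 26 without the ribosomal percentage, 392 by DESeq2, 4 with the replicate block and 9 to 56 without a sample (56 and 20 without GW3965 day 70 replicates 3 and 1). The cause of these changes was not tested.

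Uncalled genes near 0 changed sign. *Cyp27a1* (−0.0359) was at 0.0177 with the ribosomal percentage and 0.25 within 43 days, and ranged from −0.178 to 0.0683 when a sample was left out (above 0 in 3 fits). *Areg* (0.14) was at −1.15 within 43 days and ranged from −0.40 to 0.69 (below 0 in 3 fits), and *Nr1h2* (0.0207) was at −0.0811 within 22 days and ranged from −0.0140 to 0.0941 (below 0 in 3 fits). Within 22 days *Fabp2* (−0.74) was at 0.00256, and within 43 days *Fasn* (0.55) at −0.0232. *Acly* (0.19) was at −0.15 within 43 days and ranged from −0.0215 to 0.40 when a sample was left out, *Elovl6* (−0.12) was at 0.38 within 22 days and ranged from −0.28 to 0.0481, and *Abcg4* (−0.16) was at 0.54 within 43 days and ranged from −0.44 to 0.16, each changing sign in 1 of those 8 fits. The cause was not tested.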
